A study of Mus musculus with 14 samples.

Results

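Potassium channel genes of the mouse olfactory epithelium were taken as every gene symbol present in both expression tables that starts with Kcn, goes on with letters and ends in a number. Of the 51211 symbols, 92 had this form. Kcng1 and Kcnmb3 were left out by the rule, and they are given once at the end of the Kir2.1 comparison because both passed its test. The 90 genes that remained were Kcnj2, whose channel the transgene of the study encodes, and 89 other subunits. The 89 fall into 8 Kcna genes, 14 Kcnj genes, 14 Kcnk genes and 53 genes of other families.

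RNA-seq libraries were made in 2 experiments from whole olfactory epithelia of 14 pups, and each pup was P5. One experiment compared 3 mice that carried OMP-IRES-tTA together with the transgene tetO-Kir2.1-IRES-tauLacZ with 3 control mice that were OMP-IRES-tTA het, so both groups carried the tTA allele. The PEA experiment compared 4 wild type mice exposed to 2-phenylethylamine (PEA) from P0 to P5 with 4 unexposed wild type mice. The labels give the C57BL/6 background for all mice, whereas the methods of the study name CD-1 pups for odor exposure. The labels call the transgenic mice Kir2.1-Off, a name the study uses for adults fed doxycycline, but these mice were pups and are called Kir2.1 mice here. The Omp promoter that drives tTA is active in mature olfactory sensory neurons (OSNs), and cells in which it is silent were not a target of the transgene. The study states that the silencing also reaches neurons of the vomeronasal organ. Receptor RNA of that organ was present in these samples at differing levels. The study used Kir2.1 to silence OSNs and PEA to expose them to an odor, and the comparisons here ask how the RNA of the cells' own potassium channel genes compared between groups.

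Potassium channels let potassium leave the cell and so set the resting potential and end each spike. Kcna, Kcnb, Kcnc and Kcnd genes encode voltage-gated pores that open on depolarization, Kcnj genes encode inward rectifiers that hold the membrane near rest, and Kcnk genes encode leak channels. The other families include pores gated by calcium or sodium, the slow Kcnq and Kcnh channels, silent subunits that work only together with another pore, and accessory subunits such as Kcnab, Kcne and Kcnip. OSNs fire from a small cell body with high resistance, and supporting cells and glia buffer the potassium that firing releases.

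The 250 bases before the start of 2 genes are shown, since the results turn on them. Kcnj2 lies at chr11:111066164-111076821 on the plus strand and is the endogenous gene whose product the transgene also encodes, from a tetO promoter and not from the sequence below. Kcna6 lies at chr6:126708329-126740674 on the minus strand and had the lowest log2 difference of the Kcna genes tested in Kir2.1 mice. Both windows were read from RefSeq on GRCm38.p6, in the direction of the gene, and cover chr11:111065914-111066163 and chr6:126740675-126740924. Capitals mark matches to 3 motifs searched on both strands.
Kcnj2: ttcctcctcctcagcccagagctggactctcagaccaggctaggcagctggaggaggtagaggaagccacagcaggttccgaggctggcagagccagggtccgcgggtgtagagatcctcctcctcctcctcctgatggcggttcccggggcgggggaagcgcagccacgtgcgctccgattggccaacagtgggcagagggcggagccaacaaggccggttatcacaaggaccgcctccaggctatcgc
Kcna6: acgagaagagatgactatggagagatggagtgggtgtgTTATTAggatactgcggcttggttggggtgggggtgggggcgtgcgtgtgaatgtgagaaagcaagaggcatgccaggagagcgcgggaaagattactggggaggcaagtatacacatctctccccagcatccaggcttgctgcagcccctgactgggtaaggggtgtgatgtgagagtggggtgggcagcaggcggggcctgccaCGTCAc
The motifs were TGACG, the core of the cyclic AMP response element, TAATNA, a homeodomain core, and CCCNNGGG, the core of the site of EBF factors. The Kcna6 window held CGTCA, the first motif on the other strand, 6 bases before the start, and TTATTA, the second motif on the other strand, 212 bases before the start. The Kcnj2 window held none of the 3 and was 65.6% G and C, against 58.8% for Kcna6. Of 32851 windows of this length over all genes, 17.8% held TGACG, 24.3% TAATNA and 11.8% CCCNNGGG. Of 91 windows of 66 subunit genes, 15.4% held TGACG, 19.8% TAATNA and 15.4% CCCNNGGG. These matches are descriptions of letters in a window.

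Values are normalized counts per gene and mouse, as deposited. Library depth is unknown, since the values were scaled before they were deposited and sum to 33049111 to 34198478 in the Kir2.1 experiment and to 11476120 to 12467331 in the PEA experiment. The scales of the 2 tables differ and are not compared. Marker genes of mature OSNs (Omp, Cnga2, Adcy3 and 7 others) were present at 33612 to 150130 summed normalized counts in every mouse, so the labelled tissue held OSNs. Receptor genes of the vomeronasal organ, a separate sense organ next to the epithelium, summed to 11787 in Kir2.1 control mouse 1 against 1448 to 1743 in the other 5 mice of that experiment, and to between 3015 and 10636 in PEA control mice 1 to 3 and PEA-exposed mouse 1 against 586 to 678 in the other 4. Where a result is given without the mice of high values, this leaves 1 control and 3 exposed mice in the PEA experiment, and the lone control mouse is taken to vary like the others.

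The control epithelium expressed a few subunits at high level and most at low level. To compare genes, normalized counts were divided by the length of the gene's merged exons in kb. In control mice of the Kir2.1 experiment 25 of the 90 genes reached 100 normalized counts per kb, 59 reached 10, and the 10 highest genes made up 65.1% of the summed level. In PEA control mice 5 reached 100 and 42 reached 10, and the 10 highest made up 54.1%.

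In control mice of the Kir2.1 experiment Kcnc4, a fast voltage-gated pore that repolarizes spikes, came first at 1714 ± 262 normalized counts per kb (SD, n = 3). Kcnk1, a leak channel, followed at 1133 ± 64.1 per kb, and its mice did not overlap those of Kcnc4. Kcna5, a voltage-gated delayed rectifier, and Kcnab2, a cytosolic subunit that binds Kcna pores, came next at 987 ± 30.2 and 980 ± 105 per kb. These 2 could not be ordered, since their mice overlapped. The next 5 genes overlapped each neighbour in order: Kcnk2, a leak channel gated by stretch and lipids, at 690 ± 114 per kb, Kcnh3 and Kcnh4, of the ether-a-go-go family, at 585 ± 51.6 and 547 ± 47.2 per kb, the G-protein-gated Kcnj5 at 491 ± 82.7 per kb, and Kcnmb2, a subunit of large-conductance calcium-activated channels, at 417 ± 80.4 per kb. The order depends on the length taken for a gene. With the longest transcript in place of merged exons Kcnc4 was still first, and Kcnab2 came second at 1394 per kb, above Kcnk1 at 1133 and Kcna5 at 987.

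In PEA control mice Kcnk1 was first at 246 ± 44.4 per kb (SD, n = 4), and its mice overlapped those of Kcnj2, which was second at 202 ± 35.8 per kb. Kcnmb2 came next at 196 ± 22.1 per kb (210 and second with the longest transcript), and then the inward rectifier Kcnj13 at 114 ± 17.5 per kb. Kcna5 (92.7 ± 14.5 per kb), Kcnab2 (83.0 ± 22.5) and Kcnc4 (73.7 ± 17.4) were lower in this order. The 10 highest genes of both tables had 6 in common, and across the 90 genes the levels per kb in the 2 tables had a Spearman correlation of 0.87, a description in which the points share gene length and annotation. Libraries of the Kir2.1 experiment were poly-A selected and those of the PEA experiment depleted of ribosomal RNA, and the part of this in the differing order was not tested.

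**Figure D1:**
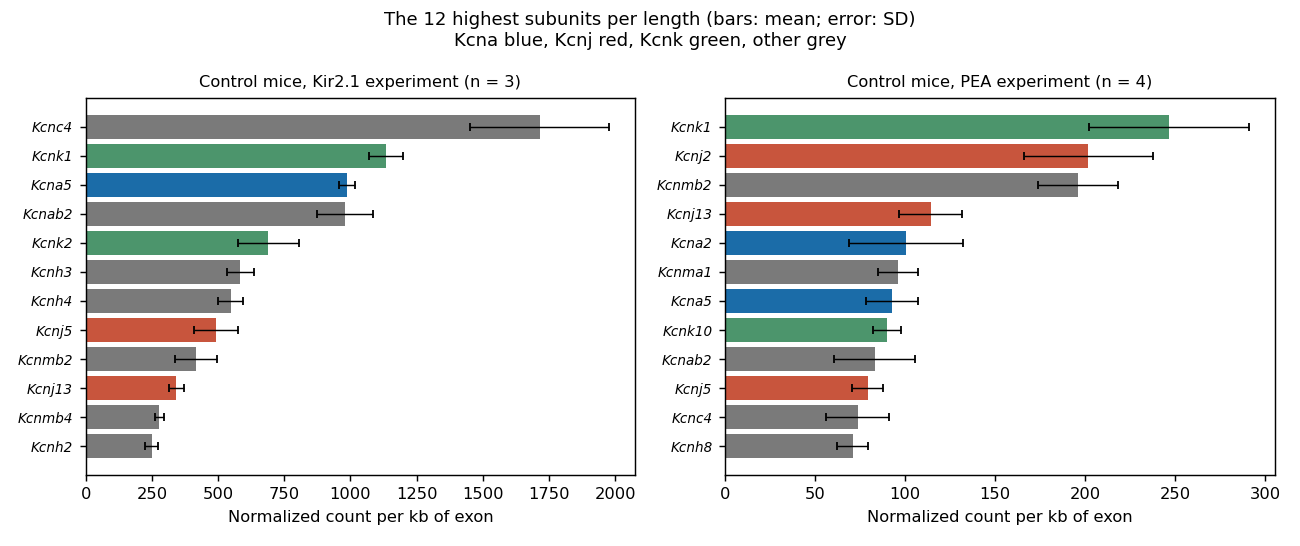
The horizontal axis is the normalized count per kb of merged exon in control mice (left, Kir2.1 experiment, n = 3; right, PEA experiment, n = 4), for the 12 highest potassium channel genes of each table. Bars are means and error bars SD, and colours mark the Kcna, Kcnj, Kcnk and other groups. Kcnc4 stands first on the left at 1714 and Kcnk1 first on the right at 246, and the horizontal scales differ between the panels.

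Kcnj2 rose in Kir2.1 mice. Control mice had 986, 1074 and 1274 normalized counts and Kir2.1 mice 17926, 18530 and 24193. Every Kir2.1 mouse lay far above every control mouse, in accordance with the genotype in the labels, though not with the name Kir2.1-Off there. The log2 fold change was 4.18 (SE 0.14), an 18.2-fold ratio of group means, with a limma adjusted p of 0.000157. Per kb of the endogenous gene's merged exons, Kcnj2 went from 204 ± 27.1 to 3714 ± 635 (SD, n = 3). The length of the transgene's transcript is not known here, so the level per kb in Kir2.1 mice cannot be ranked against other subunits. Reads from the transgene and from the mouse's own gene cannot be told apart in a total per gene.

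Genes most similar to Kcnj2 by family had low values in the same mice. Kcnj12 had 2.91 to 4.04 normalized counts in control mice and 1.95 to 7.31 in Kir2.1 mice, and Kcnj4 had 10.9 to 18.7 and 12.3 to 12.6. Kcnj14 had 3.97 to 4.95 in control mice and 7.80 to 14.6 in Kir2.1 mice, and as its mean fell short of 10 it was not tested. All 3 are strong inward rectifiers, and they are named here for their kinship with Kcnj2, chosen after their values were seen.

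In the PEA experiment, where no transgene is present, Kcnj2 had 914, 1074, 1034 and 1372 normalized counts in control mice and 941, 812, 1110 and 1108 in PEA-exposed mice. The groups overlapped and the log2 difference was -0.14 (SE 0.15, 95% interval -0.47 to 0.19). Without the mice of high vomeronasal receptor values it was -0.46 (95% interval -1.01 to 0.10).

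**Figure D2:**
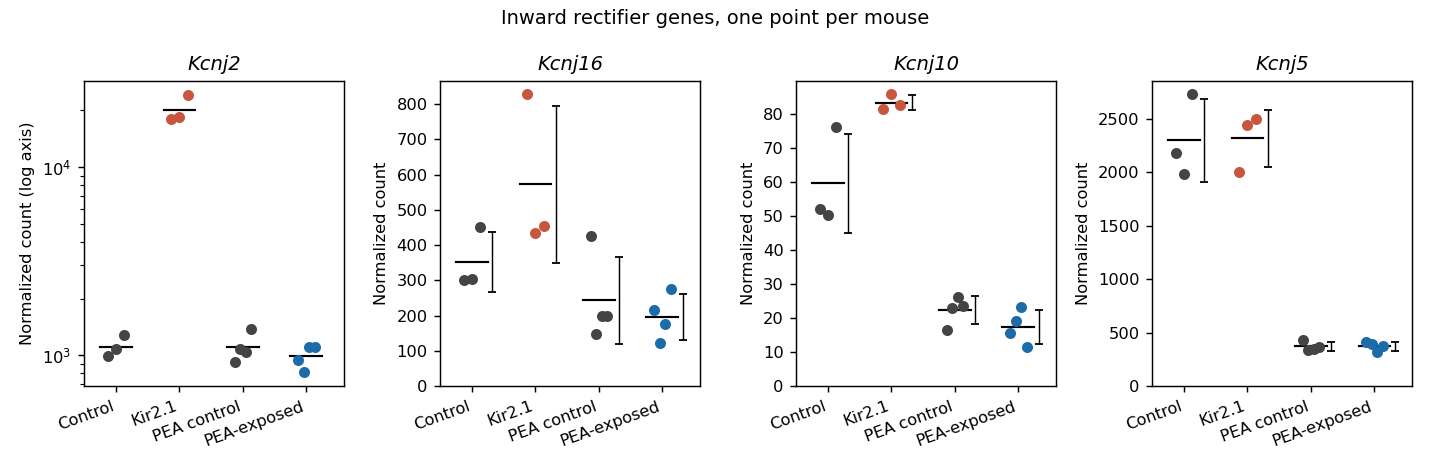
Each panel plots the normalized count of an inward rectifier gene in every mouse of the 4 groups, with horizontal bars at group means and, except for Kcnj2, error bars of 1 SD; the axis of Kcnj2 is logarithmic and the others start at 0. Kcnj2 lies at 17926 to 24193 in Kir2.1 mice and at 812 to 1372 in the other groups, Kcnj16 and Kcnj10 have higher means in Kir2.1 than in control mice, and Kcnj5 is alike in both.

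Apart from Kcnj2 and the left-out Kcng1 and Kcnmb3, no subunit passed the test in Kir2.1 mice. Of the 89, 72 had a mean of at least 10 normalized counts over the 6 mice and were tested, 17 were below this, and 1 of these, Kcna10, was listed at 0 in every mouse. None of the 72 had a limma adjusted p under 0.05, against 0.353% of all 19807 genes tested, and the smallest adjusted p was 0.0524. That share is no measure for these 72, since the rule had left out Kcng1 and Kcnmb3, which passed. At an unadjusted p under 0.05, 17 subunits were lower and 2 higher, together 26.4%, against 11.1% of all genes (lower 23.6% against 6.20%, higher 2.78% against 4.93%). The values of Kir2.1 and control mice did not overlap for 16 subunits that were lower and 3 that were higher, 26.4% in all, against 16.3% of all genes (9.04% lower and 7.26% higher). Without control mouse 1, whose vomeronasal receptor values were high, the unadjusted p was under 0.05 for 16 lower subunits and 1 higher one. These were among 73 tested subunits, against 5.45% lower and 3.75% higher of all genes. The median log2 difference was -0.07 for the subunits and 0.01 for all genes. Some other settings of the test called 1 subunit, either Kcnab2, Kcnc4 or Kcna6, and they are listed under the dependence on processing.

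**Figure D3:**
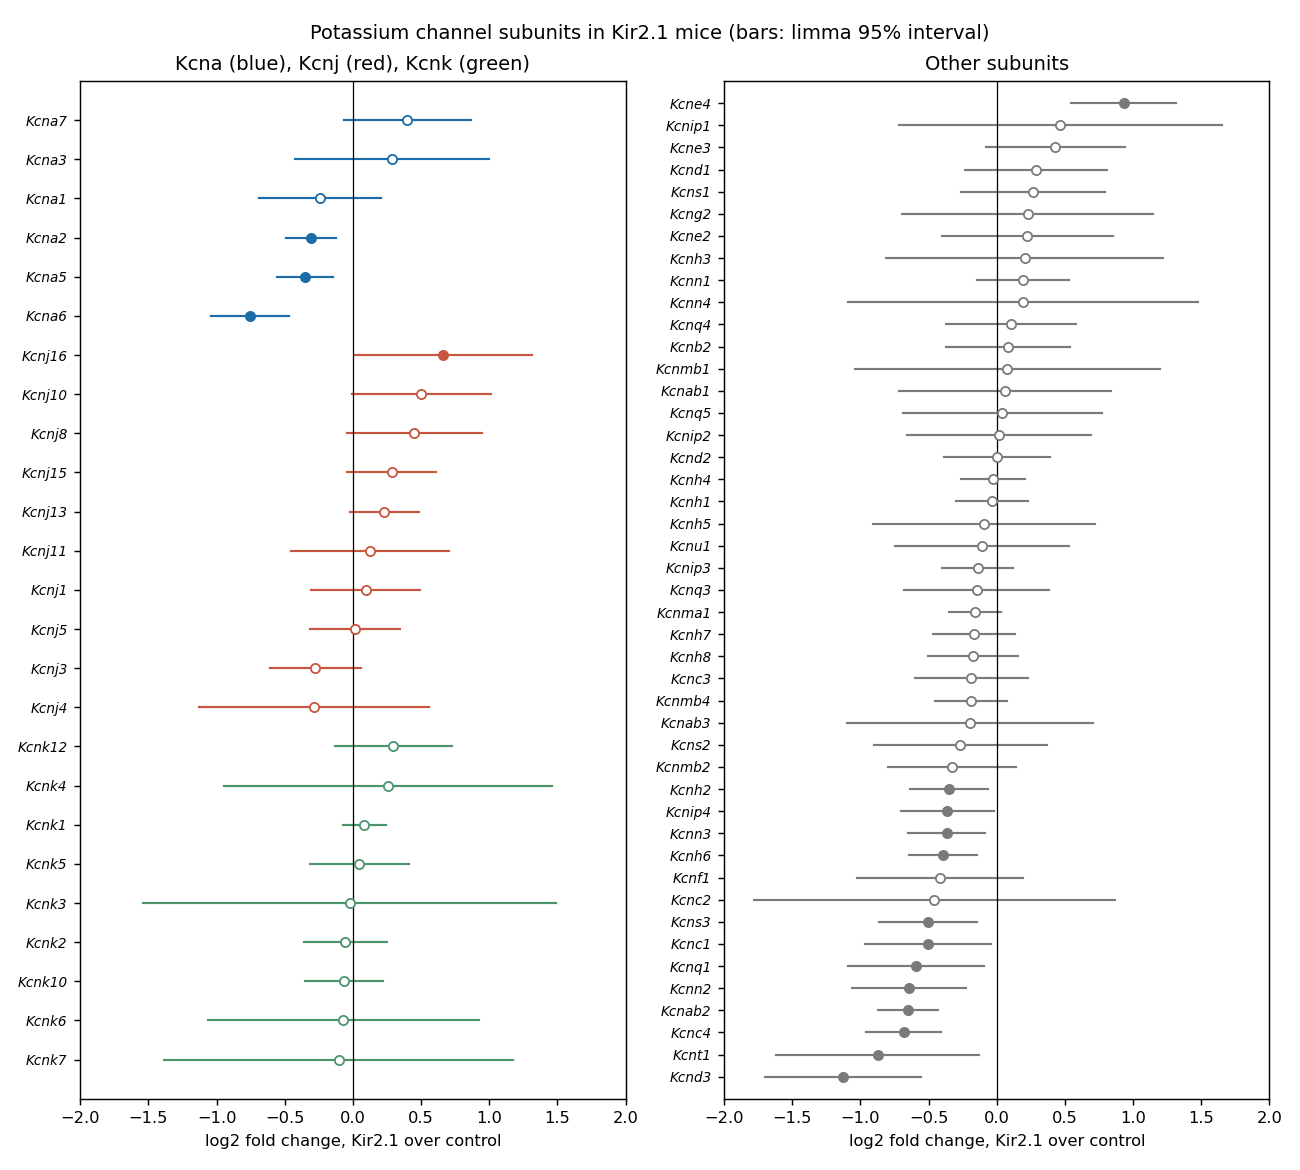
The horizontal axis is the log2 fold change of Kir2.1 over control mice for 70 of the 72 tested subunits without Kcnj2, with bars for the limma 95% interval. Filled points have an unadjusted p under 0.05, and colours mark Kcna (blue), Kcnj (red), Kcnk (green) and other genes (grey). Of the filled points 15 lie to the left of 0 and 2 to the right, Kcne4 and Kcnj16.

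Among voltage-gated pores of the Kcna group, 3 of 6 tested genes had an unadjusted p under 0.05 and all 3 were lower, with no overlap between groups. Over all genes, 6.20% were lower at that p and 9.04% were lower without overlap. Kcna6 had 1487, 1599 and 1173 normalized counts in control mice and 813, 872 and 818 in Kir2.1 mice. Each Kir2.1 mouse lay below each control mouse, and the Kir2.1 mean was 58.8% of the control mean (log2 difference -0.75, SE 0.12, limma adjusted p = 0.0727). Kcna5 had 2872, 2876 and 2725 in control and 2003, 2219 and 2450 in Kir2.1 mice (-0.35, SE 0.09, adjusted p = 0.206), and Kcna2 had 2016, 2258 and 2148 against 1631, 1802 and 1750 (-0.31, SE 0.08, adjusted p = 0.205). These genes encode low-threshold pores and delayed rectifiers that assemble with one another and with Kcnab subunits. Kcna1, which lies between Kcna5 and Kcna6 on chromosome 6 with gaps of 105 kb and 61.9 kb, had 159 to 187 normalized counts in control mice and 114 to 175 in Kir2.1 mice (-0.24, SE 0.19), and the groups overlapped. The other 2 tested Kcna genes had log2 differences above 0 and overlapping groups.

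Accessory subunits lay at both ends. Kcnab2, the cytosolic partner of Kcna pores, had the smallest p of the 72 subunits. It had 5119, 5140 and 6141 normalized counts in control mice and 3341, 3341 and 3735 in Kir2.1 mice. The Kir2.1 mean was 63.5% of the control mean (log2 difference -0.65, SE 0.09, limma adjusted p = 0.0524). Kcne4, a single-pass membrane subunit known to inhibit some voltage-gated pores, had 140, 146 and 200 in control mice and 319, 312 and 287 in Kir2.1 mice, 1.89 times the control mean (0.93, SE 0.16, adjusted p = 0.0887). No Kir2.1 mouse overlapped a control mouse for either gene. Of 10 tested accessory genes, 2 were lower and 1 was higher at an unadjusted p under 0.05, against 6.20% and 4.93% of all genes.

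Among the Kcnc and Kcnd voltage-gated pores, Kcnc4, Kcnd3 and Kcnc1 were lower at an unadjusted p under 0.05. Kcnc4, the highest subunit of the control epithelium per kb, had 5199, 6630 and 7029 normalized counts in control mice and 3762, 3807 and 4075 in Kir2.1 mice, 61.7% of the control mean (log2 difference -0.68, SE 0.12, limma adjusted p = 0.0866). Kcnd3, a pore of the fast inactivating A-type current, had 72.7, 83.1 and 93.8 in control and 36.1, 48.1 and 29.9 in Kir2.1 mice, 45.7% of the control mean (-1.13, SE 0.24, adjusted p = 0.154). In both genes every Kir2.1 mouse was below every control mouse. Kcnc1 was at -0.51 (SE 0.20), and Kcnd2 was at 0.00 (SE 0.17, 95% interval -0.39 to 0.39). Kcns3, a silent subunit that works only beside another pore, had 294, 380 and 388 in control and 249, 275 and 221 in Kir2.1 mice (-0.50, SE 0.15).

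**Figure D4:**
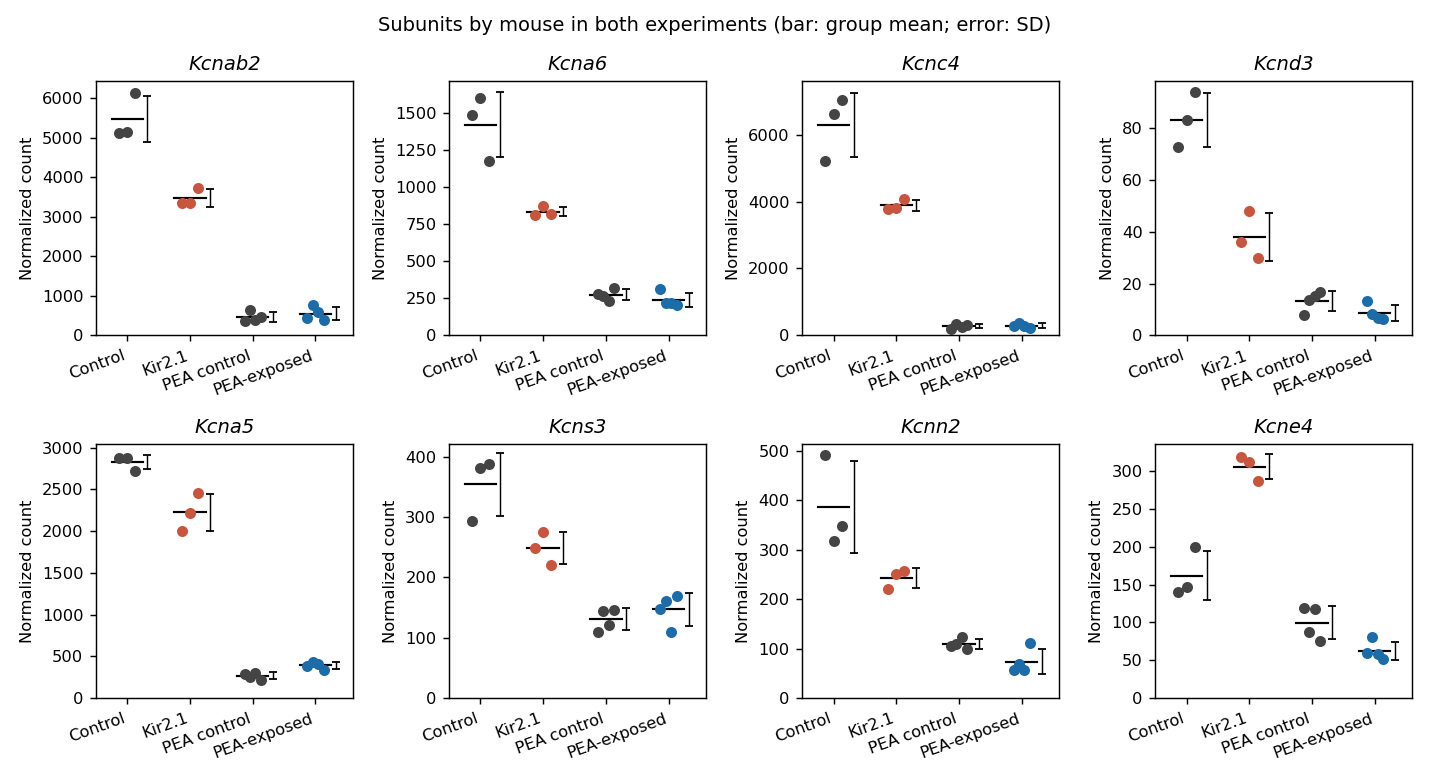
Each panel plots the normalized count of a subunit gene in every mouse of the 4 groups, on axes that start at 0, with horizontal bars at group means and error bars of 1 SD. Kcnab2, Kcna6, Kcnc4, Kcnd3, Kcna5, Kcns3 and Kcnn2 have no overlap between control and Kir2.1 mice and are lower in the latter, Kcne4 is higher, and in the PEA experiment Kcna5 is higher in each exposed mouse than in each control mouse.

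Calcium-activated, Kcnq and Kcnh channels had both lower and overlapping genes. Kcnn2, a small-conductance calcium-activated pore that follows bursts of spikes, had 492, 318 and 349 normalized counts in control and 221, 252 and 257 in Kir2.1 mice (log2 difference -0.64, SE 0.18), and its relative Kcnn3 had 413, 531 and 438 against 350, 345 and 369 (-0.37, SE 0.12). Kcnma1, the pore of large-conductance calcium-activated channels, overlapped between groups (-0.16, SE 0.08). Of 8 Kcnh genes 2 had an unadjusted p under 0.05, Kcnh6 (-0.39, SE 0.11) and Kcnh2 (-0.35, SE 0.12), and Kcnh6 alone of these 2 had no overlap. At this p, 6.20% of all genes were lower. Other lower genes at this p were Kcnq1, Kcnt1 and Kcnip4, at -0.59 (SE 0.21), -0.87 (SE 0.32) and -0.36 (SE 0.15), and these and Kcnc1 are named after their values were seen.

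Kcnh3 turned on 1 mouse. Its values were 3026, 3577 and 3494 normalized counts in control mice and 2551, 2658 and 8533 in Kir2.1 mice. Kir2.1 mouse 3 stood above all others and the other Kir2.1 mice below all controls, so the log2 difference was 0.20 (SE 0.43) with that mouse and -0.37 without it.

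Among inward rectifiers and leak channels no tested gene was lower at an unadjusted p under 0.05. Kcnj3 had 423, 376 and 385 normalized counts in control and 273, 380 and 332 in Kir2.1 mice (log2 difference -0.28, SE 0.14). Leaving out single mice took this difference as low as -0.39, and its unadjusted p was under 0.05 in 1 such fit. Of 10 tested Kcnj genes 8 had log2 differences above 0, with a median of 0.18. At an unadjusted p under 0.05 there was 1 Kcnj gene, against 11.1% of all genes. This was Kcnj16, which had 301, 305 and 451 normalized counts in control mice and 830, 433 and 455 in Kir2.1 mice (0.66, SE 0.28, limma adjusted p = 0.443). Its groups overlapped and Kir2.1 mouse 1 was the highest. Kcnj16 ends 38.2 kb before Kcnj2 on chromosome 11. Without Kir2.1 mouse 1 its log2 difference was 0.36 and its unadjusted p was no longer under 0.05. Kcnj10, which forms channels with Kcnj16 in supporting cells and glia of many tissues, had 52.2, 50.4 and 76.4 in control and 81.7, 86.1 and 82.7 in Kir2.1 mice (0.50, SE 0.22, adjusted p = 0.456). Kcnj13, an inward rectifier of epithelia, had 463, 395 and 447 against 550, 498 and 482 (0.23, SE 0.11). Kir2.1 mice lay above control mice for Kcnj10 and Kcnj13, without passing the test. In the same mice 6 of 7 markers of ensheathing and Schwann glia had log2 differences above 0, and 1, S100b (0.48, SE 0.18), had an unadjusted p under 0.05. Their summed level was 3362 to 3929 normalized counts in control and 3799 to 4702 in Kir2.1 mice, and its part in the values of Kcnj10 and Kcnj16 was not tested.

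The G-protein-gated Kcnj5, the highest Kcnj gene per kb in control mice of this experiment, had 2184, 1983 and 2732 normalized counts in control and 2006, 2443 and 2499 in Kir2.1 mice (0.02, 95% interval -0.31 to 0.34). None of 9 tested Kcnk genes had an unadjusted p under 0.05 or separate groups, against 11.1% and 16.3% of all genes. Counts from so few genes cannot be set apart from these shares. The highest Kcnk gene, Kcnk1, had 2416, 2487 and 2692 in control and 2696, 2669 and 2679 in Kir2.1 mice (0.08, 95% interval -0.08 to 0.24). Kcnk2 had 2840 to 3968 and 2965 to 3486 (-0.06, 95% interval -0.36 to 0.25), and Kcnk10 had 1470 to 1624 and 1254 to 1725 (-0.07, 95% interval -0.35 to 0.22). For these abundant leak channels the interval excluded a fall to 58.8% of control such as the mean of Kcna6 showed.

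Markers of mature OSNs were lower in the same mice. All 10 had an unadjusted p under 0.05 and were lower in Kir2.1 mice (log2 differences -0.60 to -0.31, median -0.40), and Omp passed the test at a limma adjusted p of 0.0466. Their summed level was 133944 to 150130 normalized counts in control and 99137 to 112662 in Kir2.1 mice. In bulk tissue, fewer cells of a type and less RNA per cell cannot be told apart. None of the 6 markers of immature neurons or the 6 of sustentacular cells had an unadjusted p under 0.05. Blood and immune markers, 5 of 5, and cartilage and bone markers, 5 of 5, had log2 differences above 0, and 3 of each had an unadjusted p under 0.05. Over all genes, 6.20% were lower and 4.93% higher at that p. Summed blood and immune markers had 6271 to 11100 in control and 11853 to 17722 in Kir2.1 mice. All 3 markers of motile cilia were above 0, with Dnah5 at 0.66 (SE 0.20) and sums of 9746 to 12125 in control and 12584 to 18243 in Kir2.1 mice. All 3 of vomeronasal neurons were below 0, with Trpc2 at -1.16 (SE 0.26) and sums of 18262 to 22862 and 16041 to 23197. Markers of horizontal basal, microvillar, Bowman gland, muscle and vessel cells were all above 0 without a gene at an unadjusted p under 0.05. The part of these cell types in the values of the subunits was not tested.

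Relative to the mean of the 10 mature OSN markers in each mouse, an alternative added after the values were seen, the median log2 difference of all genes shifted to 0.42, and 3 subunits were lower at an unadjusted p under 0.05 and 23 were higher. The lower ones were Kcnd3 (-0.71), Kcnc4 (-0.27) and Kcnab2 (-0.24), and Kcna6 was at -0.34 (95% interval -0.70 to 0.02). On this scale 0.853% of all genes were lower and 57.1% higher at that p. Kcna2 and Kcna5 were at 0.11 and 0.07, and Kcnh2, Kcnh6 and Kcnn3 at 0.06, 0.02 and 0.05, so these 5 were not lower than the mean of the markers.

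Genes that handle potassium beside the channels were taken from a list of 44, of which 40 were tested. Adam22, a membrane protein that anchors Kcna channels at the axon, fell and passed the test: 1688 to 1896 normalized counts in control and 1183 to 1236 in Kir2.1 mice (-0.56, SE 0.08, limma adjusted p = 0.0424). The call was lost without a filter, without the trend, with the replicate block, with the vomeronasal or Xist covariate and whenever any mouse was left out. At an unadjusted p under 0.05, 10 genes including Adam22 were lower and none was higher, against 6.20% and 4.93% of all genes tested. Among them were the hyperpolarization-activated channels Hcn4 (-0.40, SE 0.10) and Hcn2 (-0.35, SE 0.12). Amigo1, a partner of voltage-gated pores (-0.38, SE 0.09), and the scaffolds Dlg1 and Dlg2 (-0.24, SE 0.06, and -0.33, SE 0.13) were others. Of 10 tested genes of the sodium-potassium pump 2 were lower at that p, and of 5 potassium-chloride cotransporters 1. The median of the 40 was -0.10, against 0.01 for all genes.

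The 2 subunits left out by the rule both fell. Kcng1, a silent subunit, had 1035, 1176 and 1111 normalized counts in control and 347, 363 and 320 in Kir2.1 mice (log2 fold change -1.69, SE 0.10, limma adjusted p = 0.00107). Kcnmb3, a subunit of large-conductance calcium-activated channels, had 932, 954 and 918 against 418, 333 and 382 (-1.31, SE 0.11, adjusted p = 0.00633). In both, all Kir2.1 mice were below all control mice. They were not part of the counts above, which are therefore short of the 2 lowest adjusted p values after Kcnj2 among Kcn genes. In the PEA experiment Kcng1 was at -0.18 (SE 0.49) and Kcnmb3 at -0.12 (SE 0.18).

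PEA exposure left no subunit past the test. Of the 89 subunits 62 were tested, and none had a limma adjusted p under 0.05, against 0.179% of 17322 genes. At an unadjusted p under 0.05, 5 were lower and 3 higher, 12.9% of the 62 against 15.0% of all genes (6.04% lower and 8.93% higher). Groups did not overlap for 2 that were lower and 2 that were higher, 6.45% against 9.32% of all genes (3.86% lower and 5.46% higher). Both shares with all mice were below the background, and the median log2 difference was -0.01 for the subunits and -0.02 for all genes. Without the mice of high vomeronasal receptor values a lone control mouse remained, so subunits are not counted by p there. In that fit the median log2 difference was -0.05 for the 59 subunits tested and 0.002 for all genes.

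The smallest p was that of Kcna5, which had 293, 254, 303 and 212 normalized counts in control and 384, 432, 407 and 338 in PEA-exposed mice. Each exposed mouse lay above each control mouse, 1.47 times the control mean (log2 difference 0.56, SE 0.14, limma adjusted p = 0.131). It kept an unadjusted p under 0.05 in each of the 20 alternative settings. Without the mice of high vomeronasal receptor values it was at 0.88, against a lone control mouse that had the lowest control value (212). Kcne1, an accessory partner of Kcnq1, had 15.2, 2.12, 7.42 and 16.7 in control and 19.3, 27.8, 20.2 and 19.1 in exposed mice (1.26, SE 0.53), low values throughout. It was at 0.38 (95% interval -0.64 to 1.40) without the mice of high vomeronasal receptor values.

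Of the lower genes, Kcne4 had 120, 86.8, 117 and 75.2 normalized counts in control and 59.1, 80.2, 58.6 and 51.7 in exposed mice (log2 difference -0.66, SE 0.21, limma adjusted p = 0.198). Kcnn2 had 105, 109, 123 and 99.6 in control and 57.2, 68.6, 57.3 and 111 in exposed mice (-0.61, SE 0.22), and exposed mouse 4 was within the control range. Kcnma1 had 1447, 1766, 1486 and 1813 in control and 1378, 1297, 1133 and 1447 in exposed mice (-0.31, SE 0.11, adjusted p = 0.256), and all exposed mice were below the lowest control mouse by a small margin. Kcnh5 (-0.55, SE 0.20) also had separate groups, and Kcnab1 (-0.68, SE 0.30) did not. Without the mice with high vomeronasal receptor values, Kcne4 was at -0.27, Kcnn2 at -0.39, Kcnab1 at -0.02, Kcnma1 at -0.50 and Kcnh5 at -0.65. Kcna2, Kcna6 and Kcnq3 were at -0.68, -0.58 and -1.12 there. All of these values rest on 1 control mouse, which had the highest control values of Kcna2 (1519) and Kcna6 (319).

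Leak channels and inward rectifiers had no gene at an unadjusted p under 0.05 in the PEA experiment with all mice, among 5 and 8 tested. Kcnk1 had 460 to 652 normalized counts in control and 563 to 654 in exposed mice (0.15, 95% interval -0.15 to 0.45). Without the mice of high vomeronasal receptor values Kcnk1 was at 0.42, against a lone control mouse that had the lowest control value (460). Kcnj5 had 338 to 427 and 316 to 410 (0.01, 95% interval -0.27 to 0.28). Of the 44 other genes of potassium handling 35 were tested and none passed the test. At an unadjusted p under 0.05, 2 were lower (Dpp10 and Lgi1) and 2 higher (Fxyd6 and Slc12a4). Of all genes tested, 6.04% were lower and 8.93% higher at that p. Of the 10 markers of mature OSNs, 6 had differences below 0 and 4 above, with a median of -0.08. Gnal (-0.37) and Ric8b (-0.25) were lower and Omp (0.31) higher at an unadjusted p under 0.05. At an unadjusted p under 0.05, 2 of 6 markers of immature neurons, 2 of 4 of horizontal basal cells, 1 of 6 of sustentacular cells, 3 of 5 of microvillar cells, 2 of 4 of Bowman glands and 1 of 3 of motile cilia were higher in exposed mice, and 2 of 5 of glia and 2 of 5 of cartilage and bone were lower. Over all genes, the shares at that p were 8.93% higher and 6.04% lower. The part of these marked cell types in the values of the subunits was not tested.

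The 2 experiments share no mice. Of 60 subunits tested in both, 4 had an unadjusted p under 0.05 in each. These are 21.1% of the 19 in the Kir2.1 and 50% of the 8 in the PEA experiment. Singly, 11.1% of all genes had such a p in the Kir2.1 and 15.0% in the PEA experiment. The share of all genes with such a p in both was not computed, so the 4 cannot be set against it. Kcnn2 was lower in both. Kcna5 (-0.35 and 0.56) was lower in Kir2.1 mice and higher in exposed mice, and Kcne4 (0.93 and -0.66) was the reverse. The difference between the 2 experiments was not tested, since they were normalized separately and differ in library type. Of the 17 subunits lower in Kir2.1 mice 10 had a difference above 0 in exposed mice. Above 0 there were also 8061 of all 17322 genes and 30 of the 62 subunits tested in that experiment. Kcnab2 had 368, 643, 388 and 454 normalized counts in PEA control mice and 450, 758, 594 and 393 in exposed mice (0.23, SE 0.23), Kcnc4 was at 0.10 (SE 0.21) and Kcna6 at -0.22 (SE 0.16), and in each of these 3 the groups overlapped.

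**Figure D5:**
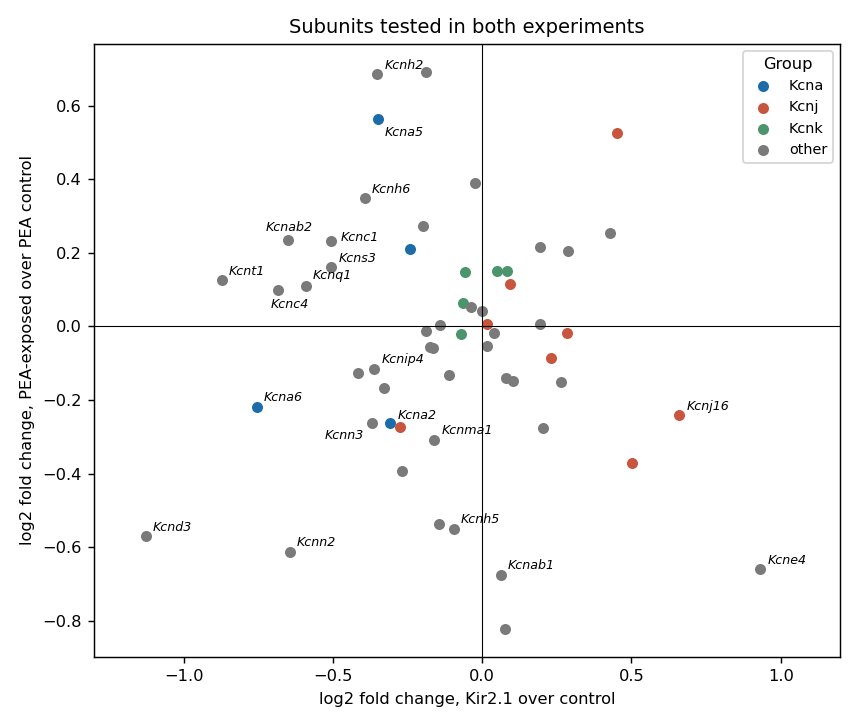
The horizontal axis is the log2 fold change of Kir2.1 over control mice and the vertical axis that of PEA-exposed over PEA control mice, for 58 of the 60 subunits tested in both experiments. Colours mark the 4 groups, and names are given for genes with an unadjusted p under 0.05 in either. Kcne4 lies at 0.93 and -0.66, Kcna5 at -0.35 and 0.56, and Kcnn2 at -0.64 and -0.61.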

How the data were processed

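Whole olfactory epithelia of single P5 mice were sequenced by the authors, from unstranded poly-A libraries (short single-end reads) in the Kir2.1 experiment and from stranded, ribosomal-RNA-depleted libraries (longer reads) in the PEA experiment. Transcripts were quantified by the authors with Salmon 1.3.0 on an Ensembl mouse annotation, collapsed to genes through tximport, and scaled by DESeq2 1.30.0. The deposited values are thus a normalized signal per gene, called normalized counts here. Whole reads could not be recovered, so count tests were not run, and depth is unknown. Salmon is described with a reverse-strand setting for all samples, and what this did to the unstranded libraries cannot be seen in the values. Without strand, reads of a gene and of an antisense partner cannot be told apart.

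Each experiment was tested alone over all genes with a mean of at least 10, as log2(value + 1), with limma 3.58.1 in R 4.3.3 (trend, Benjamini-Hochberg adjustment over all genes tested, threshold 0.05). Fold changes are on that scale and understate those of low genes. Lengths and positions came from GENCODE vM21 (GRCm38), which held 95.9% of the symbols, and promoters from RefSeq (GRCm38.p6). Python 3.11.15, pandas 2.3.3 and matplotlib 3.10.9 were used besides. The test was tried on simulated data first.

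All 14 columns were matched to mice by label. Nothing ties mice of one number together, so p-values measure the spread between these mice, taken as independent. The methods describe odor exposure by a vial in the home cage of mother and pups, and name littermates of the Kir2.1 pups. The labels name no litter or cage, so litter could not be modelled. In the PEA experiment an effect of litter or cage cannot be told apart from exposure. Members, gene lists and tests were chosen with earlier results of these data known. Named were Kcnj2, the left-out genes, members past the test, those with the smallest p per group and experiment (3 in Kcna, Kcnj and Kcnk, 10 in the other group) and those highest per kb in control mice (2, and 4 in the other group). Alternatives were pseudocounts of 0.5 and 5, no filter, a minimum of 50, no trend, quantile normalization, median centring, the replicate number as a block, a vomeronasal or Xist covariate, centring on mature OSN markers, leaving out mice, and the longest transcript as length. A few genes are counted but not reported here by name or plotted. PEA control mouse 4 has the number 5 in its library name.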

Additional observations from a re-analysis of the deposited data

Results flagged for a closer look

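Among the 66 groups of 4 mice checked for a single mouse far from the rest, 4 values stood apart, and chance alone marks about 1 in 20 groups. Kcnh3, of the ether-a-go-go family, had 369 normalized counts in PEA-exposed mouse 2 against 138 to 152 in the other 3, and its control mice ranged from 147 to 455. The accessory subunit Kcne1 had 27.8 in the same mouse against 19.1 to 20.2 in the others. PEA control mouse 2 had 158 for the G-protein-gated Kcnj3 against 81.5 to 85.9, and 60.0 for the leak channel Kcnk5 against 101 to 105. Groups of 3 mice, as in the Kir2.1 experiment, were not checked.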

How the results depend on the processing

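Kcnj2 passed the test in Kir2.1 mice in all 17 settings, at log2 fold changes of 4.04 to 4.59. The count of other subunits called in Kir2.1 mice, 0 as reported, was 1 with a minimum mean of 50, quantile normalization, median centring or the Xist covariate (Kcnab2 each time) and with the vomeronasal covariate (Kcnc4), and 0 to 1 when a mouse was left out (Kcnc4 without control mouse 1, Kcna6 without control mouse 3). It was 20 of 72 (27.8%) on the scale centred on mature OSN markers, below the 48.5% of all genes called there, and on that scale the unadjusted p was under 0.05 for 3 lower and 23 higher subunits, against 17 and 2 as reported, and Kcna2 (0.106), Kcna5 (0.0657), Kcnh2 (0.0642), Kcnh6 (0.0216) and Kcnn3 (0.0461) changed sign. The lower count was 11 to 16 when a mouse was left out, 11 without control mouse 2. Of all genes, 4.66% to 6.34% were then lower and 3.12% to 6.04% higher at that p. The higher count of subunits was 1 to 6 when a mouse was left out (1 without Kir2.1 mouse 1 or control mouse 1 or 2, 5 without control mouse 3 and 6 without Kir2.1 mouse 3), 1 with the vomeronasal covariate and 4 without the trend. Of all genes at that p, 44.3% were higher as reported and 34.4% after median centring, which gave 18 lower and 2 higher subunits; in the PEA experiment the share went from 59.6% to 43.1%, with 5 lower and 2 higher subunits. No PEA setting called a subunit. There, 5 lower and 3 higher subunits became 3 lower with a minimum mean of 50, 5 higher without a filter, 2 lower and 5 higher on the marker scale, and 2 to 5 lower and 1 to 5 higher when a mouse was left out (2 lower without exposed mouse 3, 3 without control mouse 2; 1 higher without control mouse 3 or exposed mouse 1, 2 or 3, 5 without control mouse 4). Of all genes, 4.36% to 7.67% were lower and 6.68% to 9.23% higher at that p when a PEA mouse was left out. Genes at or above 100 per kb in PEA control mice went from 5 to 8 with the longest transcript as length. In control mice of the Kir2.1 experiment Kcnh3 then went from 585 to 910 per kb and Kcnmb4 from 278 to 569.

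For other genes of potassium handling in Kir2.1 mice, the 1 call was lost (0) without a filter, without the trend, with the block, with either covariate and whenever a mouse was left out, and became 15 of 40 on the marker scale; 10 lower genes became 0 on that scale and 6 to 9 when a mouse was left out (6 without control mouse 3); 0 higher genes became 18 on that scale, 1 without a filter, with the block or the vomeronasal covariate, and 0 to 3 when a mouse was left out. In the PEA experiment the calls were 0 to 1 when a mouse was left out (1 without control mouse 3), 2 lower genes became 1 with a minimum mean of 50, and 2 higher genes became 1 with quantile normalization, the vomeronasal covariate or mice of low vomeronasal values, 0 with median centring, the block or the Xist covariate, and 0 to 4 when a mouse was left out. The cause of these shifts was not tested.

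The replicate block gave 16 lower and 1 higher subunit and no call in Kir2.1 mice, and 5 lower and 2 higher and no call in the PEA experiment. From the group means, mice with the same number deviated with correlations of -0.06, -0.01 and 0.16, and at 0.13, -0.02, -0.05 and 0.10, so the numbers were not taken to pair mice. With 3 or 4 mice a group and depth unknown, differences can be missed.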

Other observations

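Subunits below the filter of the test make up much of the family. In the Kir2.1 experiment 17 of 89 subunits and in the PEA experiment 27 of 89 had a mean under 10 normalized counts, and 15 were below it in both. Without a filter, 2 such genes had an unadjusted limma p under 0.05, both in the PEA experiment, the silent subunit Kcng3 (log2 difference 1.16, adjusted p = 0.443) and the inward rectifier Kcnj4 (1.14, adjusted p = 0.457). Kcng3 had 1.04 to 6.14 normalized counts in control and 7.25 to 9.36 in PEA-exposed mice. Kcna4, a pore of an A-type current, had 36.4 normalized counts in PEA-exposed mouse 1 and 2.53 to 8.43 in the other 7 mice of that experiment. In the Kir2.1 experiment Kcnn4, an intermediate-conductance calcium-activated pore, had 737 in Kir2.1 mouse 1 and 184 to 503 in the other 5 mice, and the leak channel Kcnk3 had 155 in control mouse 1 and 31.2 to 102 in the others. These 5 genes were chosen after their values were seen.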
